A study of Cephalotaxus fortunei with 9 samples.

Results

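Of 37051 transcripts quantified in leaf, root and stem of the conifer Cephalotaxus fortunei, 120 stood at 300 TPM or more in every library. TPM, a measure of transcript abundance, divides the reads of a transcript by its effective length and is scaled to 1000000 per library. The 120 transcripts were chosen on these levels, so their abundance describes the choice, and the floor of 300 TPM in every library limits how far a chosen transcript can differ between organs. There were 3 libraries of poly(A)-enriched RNA per organ, and the labels name no treatment, genotype or age. The study aimed at enzymes of cephalotaxine and homoerythrina alkaloid synthesis and used a network of expression over the organs to choose candidates. How many plants were sampled is not labelled, so p-values cover the spread among these libraries, part of which may be technical.

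In plants, transcripts that are abundant in every organ commonly encode the machinery all cells share, such as ribosomal proteins, translation factors, ubiquitin, tubulin and actin, or small stress and metal-binding proteins. Their messages are long-lived or made at a high rate, and together they can take up a large part of a poly(A) library, so that a change in a few of them moves the TPM of all others. The deposited tables give transcripts by running number, and no name, annotation or sequence was used here. The members are therefore described by level, length, rank and organ profile and not by function, and the organ labels could not be checked against marker genes.

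Libraries held 7117807 to 19652495 estimated reads, fewest in root and most in stem, so depth and organ cannot be told apart. Counting error was small for the members: the median member had 3909 to 12426 reads per library and the member with the fewest had 81.2 in root replicate 2. The first and second root replicates were closer to each other than sampling noise: over the members, chi-square per degree of freedom was 0.0890, whereas it was 102 to 344 for pairs of leaf libraries and 132 to 275 for pairs of stem libraries. Their ratio ran from 0.987 to 1.06 over the 120 members. Both were averaged into 1 sample, so root has n = 2.

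The 120 members, 0.324% of all transcripts, held similar shares of the TPM in leaf and stem and a varying share in root. Their summed share was 20.9%, 20.8% and 19.5% in leaf replicates 1 to 3, and 22.0%, 21.5% and 21.8% in stem. The root libraries stood at 14.5%, 14.5% and 22.0%. As organ means this was 20.4% ± 0.743 for leaf (SD, n = 3), 21.8% ± 0.240 for stem (SD, n = 3) and 18.3% ± 5.33 for root (SD, n = 2). The first and second root replicates lay below every shoot library, and root replicate 3 was level with the highest stem library.

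A single member accounted for the gap between the root libraries. Root replicate 3 exceeded the mean of root replicates 1 and 2 by 7.54 percentage points for the members as a whole and by 7.97 points for transcripts_2235 alone. Without transcripts_2235 the other 119 members held 13.0%, 13.0% and 12.5% in root replicates 1 to 3, 15.2% to 16.1% in leaf and 16.8% to 17.2% in stem. On this measure the organs did not overlap, with root lowest and stem highest. In bulk RNA a lower level can mean fewer cells that contain a transcript or less of it per cell, and these cannot be told apart.

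**Figure D1:**
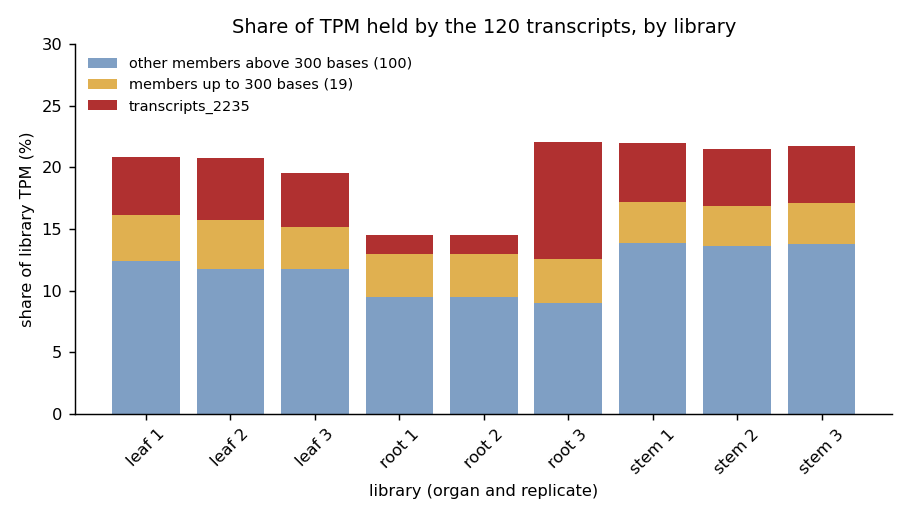
Share of library TPM in percent (vertical axis) held by the 120 transcripts in each of the 9 libraries (horizontal axis), divided into transcripts_2235 (red), the 19 members up to 300 bases (yellow) and the other 100 members (blue). The red part is 9.50% in root replicate 3 and 1.53% to 1.54% in root replicates 1 and 2, while the blue and yellow parts of the root libraries together lie below those of every leaf and stem library.

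By estimated reads in place of TPM the members held less, with leaf at 12.4% ± 0.212 (SD, n = 3), stem at 15.4% ± 0.145 (SD, n = 3) and root at 11.2% ± 1.92 (SD, n = 2). Members up to 300 bases held 3.71% ± 0.296 of leaf TPM (SD, n = 3) but 0.360% ± 0.00770 of leaf reads (SD, n = 3). The members' median length was 909 bases, against 695 bases for all transcripts and 1112 bases for those tested. The length classes were unevenly filled, with 43 members (35.8%) above 1000 and up to 2000 bases, where 20.9% of all transcripts fall, and 12 members above 2000 bases, where 19.3% of all transcripts fall.

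Members were a minority of all transcripts that reached 300 TPM in a library. Their share of that class was 27.5% to 28.3% for leaf and 24.8% to 25.2% for stem. It was 27.4% to 27.5% for the first and second root replicates and 33.6% for the third, where the class itself was smallest with 357 transcripts against 424 to 484 elsewhere. Most transcripts at this level in an organ thus did not reach it in all others. Of 24 transcripts that were among the 10 most abundant of at least 1 library, 7 were members.

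Ranks by TPM among all transcripts of a library showed where the members sat in each organ. Their median rank was 121.5 to 123.5 in leaf, 115 to 120 in stem, and 166, 164.5 and 144 in root replicates 1 to 3. The 100 most abundant transcripts included 48 to 51 members in leaf, 50 to 54 in stem, and 32, 32 and 40 in root replicates 1 to 3. Taking the median rank of the 3 libraries per organ, 62 members ranked further down in root than in leaf and in stem, 27 ranked further up, and 31 lay between. The root median follows replicates 1 and 2, which are nearly the same, so root replicate 3 hardly counts in this split. Its count for transcripts_2235, for example, rests on a root median of 3, although that transcript ranked first in root replicate 3. Of the 120, 20 stayed within the first 100 ranks in all 9 libraries, and 2, transcripts_2235 and transcripts_1197, stayed within the first 10.

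The order of the members was stable within leaf and stem and changed most between shoot and root. Over the 120 members, the Spearman correlation of TPM was 0.964 to 0.976 for pairs of leaf libraries and 0.967 to 0.984 for pairs of stem libraries. A leaf and a stem library correlated at 0.726 to 0.807, a leaf and a root library at 0.417 to 0.602, and a stem and a root library at 0.406 to 0.573. Within root, the third replicate correlated with the first and second at 0.827 and 0.828. Over all transcripts the values were 0.81 to 0.82 for leaf and stem, 0.511 to 0.629 for leaf and root, and 0.478 to 0.619 for stem and root. Over the members, root replicate 3 correlated with leaf at 0.522 to 0.602, and root replicates 1 and 2 at 0.417 to 0.465. Over all transcripts root replicate 3 was the lower, at 0.511 to 0.515 against 0.622 to 0.629. Within 2-fold of each other were 96 to 110 members for a leaf and a stem library, 87 to 91 for leaf and root, and 72 to 83 for stem and root. Such counts were not made over all transcripts. The values over the members describe transcripts chosen on level, the pairs share libraries, and none of the values carries a test.

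The most abundant member was transcripts_2235 (406 bases). It stood at 47609.7, 50702 and 43649 TPM in leaf replicates 1 to 3, at 48247, 46963 and 46209 TPM in stem, and at 15360.1, 15332 and 95014 TPM in root. Leaf and stem overlapped, while the root libraries lay on both sides of the shoot, so the root mean describes no library. It ranked first in all libraries except root replicates 1 and 2, where its rank was 3 and transcripts_15801, not a member, ranked first. With both root samples no comparison of this transcript passed its test (leaf over root log2 fold change 0.19 ± 0.61, adjusted p = 0.815, and stem over root 0.78 ± 0.62, adjusted p = 0.311, edgeR, error as SE). Without root replicate 3 these were 2.06 (adjusted p = 3.72e-05, edgeR) and 2.62 (adjusted p = 1.31e-05, edgeR). When root replicate 3 alone stood for root, they were -0.49 (adjusted p = 0.00942, edgeR) and 0.08 (adjusted p = 0.557, edgeR).

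Next came transcripts_1197 (251 bases), at 10632, 11465 and 9544 TPM in leaf, 15599, 15366 and 14920.1 TPM in root, and 9805, 9314 and 10112 TPM in stem. On this scale every root library lay above every shoot library. As a share of estimated reads root lay lowest, with 0.0750% to 0.0856% against 0.135% to 0.139% in leaf and 0.120% to 0.130% in stem, and the count model called it higher in stem than in root (log2 fold change 1.29 ± 0.085, adjusted p = 1.65e-05, edgeR). Salmon's effective length for it was 37 to 39 bases in root and 109 to 138 bases in leaf and stem. With effective lengths entered in the model the stem over root value was -0.17 (adjusted p = 0.224, edgeR), so its direction depended on the scale. Leaf over root was 0.86 (adjusted p = 1.44e-04, edgeR) on counts and -0.59 (adjusted p = 0.00322, edgeR) with effective lengths.

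Differences between organs were tested on rounded estimated counts over 24564 transcripts, all 120 members among them, with edgeR's quasi-likelihood test and scaling by trimmed mean of M values (TMM). Calls required at least a 2-fold difference and an adjusted p (Benjamini-Hochberg) below 0.05. An F test over the organs found a difference in 101 of the 120 members (84.2%), beside 69.5% of all transcripts tested (adjusted p under 0.05, edgeR). Most members thus differed among organs by the adjusted p, which sets no size of difference. Called in no pairwise comparison were 49 (40.8%, beside 33.9% of all transcripts tested). In size the members differed less than all transcripts tested. Their median absolute log2 fold change was 0.58 against 1.30 for leaf and root. It was 1.01 against 1.63 for stem and root, and 0.58 against 0.89 for leaf and stem.

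Stem against root gave the most calls among the members, as it did over all transcripts tested. Higher in stem were 59 members (49.2%, beside 20.3% of all transcripts tested) and higher in root were 2 (1.67%, beside 31.8%), together 61 (50.8%, beside 52.0%). By the adjusted p alone 92 differed (76.7%, beside 60.8%, edgeR). The members' median log2 fold change of stem over root was 0.99, against -0.46 for all transcripts tested. Stem libraries had TMM factors of 0.750 to 0.791 and the root samples 1.16 and 1.26. With library totals alone 30 members were higher in stem and 9 higher in root, and the medians fell to 0.35 for members and -1.09 for all. The shares over all transcripts above do not apply to this scaling, so its counts show only how the members' calls moved.

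**Figure D2:**
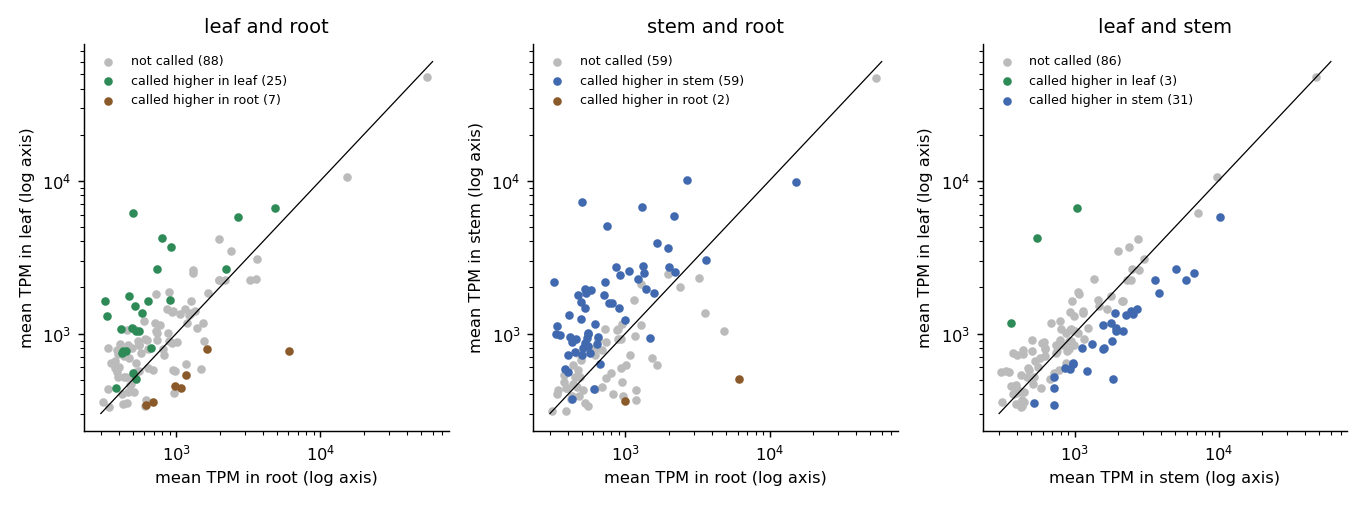
Mean TPM of each of the 120 transcripts in pairs of organs (log axes, leaf n = 3, root n = 2 with replicates 1 and 2 averaged, stem n = 3), coloured by the edgeR call; the line marks equal TPM. Stem and root have the most calls, as they do over all transcripts tested, with 59 transcripts called higher in stem and 2 in root. Some called points lie close to or across the line because calls come from TMM-scaled counts and not from TPM.

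The members with the largest calls in stem over root, where library values of the organs did not overlap, were transcripts_34477, transcripts_7870 and transcripts_27332. Transcript transcripts_34477 (201 bases) stood at 8007, 6538 and 7148 TPM in stem, 5645, 6877 and 5860.2 TPM in leaf, and 458, 430.3 and 561 TPM in root. Every shoot library thus lay more than 10-fold above every root library, and the ranks were 9 to 12 in the shoot and 166 to 287 in root. The log2 fold change over root was 5.60 ± 0.23 in stem (adjusted p = 2.15e-06, edgeR) and 4.89 ± 0.23 in leaf (adjusted p = 5.03e-06, edgeR). With effective lengths in the model these were 4.31 and 3.53. The root values rest on 81.2 to 110 reads per library.

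The longer transcripts_27332 (1546 bases) stood at 5485, 5139.6 and 4568 TPM in stem, 2318, 2409 and 3210.0 TPM in leaf and 825, 809.8 and 665 TPM in root. The organs formed separate steps with stem on top and root at the bottom. It was higher in stem than in root (log2 fold change 3.26 ± 0.18, adjusted p = 7.85e-06, edgeR) and than in leaf (leaf over stem -1.50 ± 0.14, adjusted p = 1.56e-04, edgeR), the latter -0.95 with library totals alone and so below 2-fold. The third, transcripts_7870 (242 bases), stood at 1837, 1565 and 2139.7 TPM in stem, 741, 367 and 406 TPM in leaf and 581, 575 and 480.5 TPM in root. Leaf and root overlapped in TPM and stem lay above both (stem over root 3.64 ± 0.36, adjusted p = 1.59e-04; leaf over stem -2.44 ± 0.28, adjusted p = 4.85e-04, edgeR). With effective lengths in the model its stem over root value was 2.28.

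The 2 members called higher in root than in stem were also the 2 called higher in root than in both shoot organs. Transcript transcripts_1253 (565 bases) stood at 6747, 6757 and 5441 TPM in root, 757, 857 and 703 TPM in leaf and 536, 465 and 513 TPM in stem. It ranked 5 to 8 in root and 125 to 268 in the shoot, the converse of transcripts_34477. Its log2 fold change was -2.61 ± 0.13 for leaf over root (adjusted p = 6.13e-06, edgeR) and -2.65 ± 0.13 for stem over root (adjusted p = 3.87e-06, edgeR). The other, transcripts_18863 (1172 bases), stood at 1153, 1144 and 826 TPM in root, 433 to 488 TPM in leaf and 334 to 381 TPM in stem, with -1.42 ± 0.13 for leaf over root (adjusted p = 1.07e-04, edgeR) and -1.06 ± 0.13 for stem over root (adjusted p = 3.88e-04, edgeR). The stem value fell below the 2-fold threshold in several settings, at -0.76 when root replicate 3 alone stood for root and at -0.95 both with effective lengths in the model and without a filter on low counts.

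Leaf against root gave fewer calls. Higher in leaf were 25 members (20.8%, beside 17.7% of all transcripts tested) and higher in root were 7 (5.83%, beside 26.6%), together 32 (26.7%, beside 44.3%). By the adjusted p alone 74 differed (61.7%, beside 53.4%, edgeR). The median log2 fold change of leaf over root was 0.31 for members and -0.27 for all transcripts tested. After transcripts_34477, the largest calls in leaf were transcripts_24506 and transcripts_11109. Transcript transcripts_24506 (317 bases) stood at 3699.6, 4173 and 3133 TPM in leaf, 2473, 2295 and 2450.2 TPM in stem and 596, 587 and 1240.1 TPM in root, lower in every root library than in any shoot library, with root replicate 3 above the other root libraries. Its log2 fold change over root was 3.08 ± 0.32 in leaf (adjusted p = 2.55e-04, edgeR) and 3.12 ± 0.32 in stem (adjusted p = 2.05e-04, edgeR). These values were 1.91 and 1.84 with effective lengths in the model, and 3.80 and 3.82 without root replicate 3.

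Higher in root than in leaf, after transcripts_1253 and transcripts_18863, came transcripts_10334, one of the longest members (4745 bases). It stood at 333, 342 and 349 TPM in leaf, 669, 669 and 571 TPM in root and 717, 725 and 719.8 TPM in stem. It was called lower in leaf than in either other organ, with a log2 fold change of -1.32 ± 0.073 for leaf over root (adjusted p = 1.04e-05, edgeR) and -1.63 ± 0.068 for leaf over stem (adjusted p = 3.03e-06, edgeR). With effective lengths in the model the leaf over root value was -0.92, below the 2-fold threshold.

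Leaf against stem was nearly one-sided among the members. Higher in stem were 31 (25.8%, beside 14.4% of all transcripts tested) and higher in leaf were 3 (2.50%, beside 14.5%), together 34 (28.3%, beside 29.0%). By the adjusted p alone 85 differed (70.8%, beside 39.3%, edgeR). The median log2 fold change of leaf over stem was -0.57 for members and 0.02 for all transcripts tested. With library totals alone 8 were higher in stem and 3 in leaf, and the medians were -0.02 and 0.57. Calls by limma on log2(TPM + 1) also numbered 8 and 3. For neither setting is a share over all transcripts given.

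The 3 members higher in leaf than in stem were transcripts_11109, transcripts_4120 and transcripts_21044. Transcript transcripts_11109 (563 bases) stood at 4472, 3631 and 4575 TPM in leaf, 799, 795 and 804 TPM in root and 593, 534 and 525 TPM in stem. Leaf stood apart from both other organs, and root lay slightly above stem without passing the test (leaf over stem 2.47 ± 0.14, adjusted p = 1.14e-05; leaf over root 2.18 ± 0.16, adjusted p = 3.86e-05; stem over root -0.29 ± 0.15, adjusted p = 0.131, edgeR). Transcript transcripts_4120 (228 bases) stood at 6121, 7218 and 6465 TPM in leaf, 3587, 3633 and 6014 TPM in root and 1085, 957 and 1069.5 TPM in stem. It was low in stem and variable in root, where replicate 3 came close to the leaf range (leaf over stem 2.07 ± 0.21, adjusted p = 2.15e-04, edgeR). The model on counts called it higher in leaf over root (1.56 ± 0.24, adjusted p = 0.00136, edgeR), but with effective lengths the value was 0.37 (adjusted p = 0.223, edgeR). Its stem over root value was -0.51 (adjusted p = 0.0849, edgeR), -1.17 with library totals alone and -1.76 with effective lengths. Transcript transcripts_21044 (324 bases) stood at 1177, 1222 and 1103 TPM in leaf, 1430.2, 1441 and 936 TPM in root and 341, 365 and 388 TPM in stem, with stem below both other organs (leaf over stem 1.1 ± 0.17, adjusted p = 0.00187, edgeR). Its stem over root value was -0.69 (adjusted p = 0.0160, edgeR), -1.32 with library totals alone and -1.22 with effective lengths.

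Among the members higher in stem, transcripts_26224, transcripts_22389 and transcripts_36889 were the most abundant. Transcript transcripts_26224 (481 bases) stood at 10062, 10402 and 9997 TPM in stem, 5489.8, 6223 and 5592 TPM in leaf and 2617, 2630.3 and 2771 TPM in root. The 3 organs did not overlap, and it was called higher in stem compared with leaf (leaf over stem -1.44 ± 0.077, adjusted p = 9.10e-06, edgeR, but -0.89 and below 2-fold with library totals alone) and lower in root when set against leaf (1.60 ± 0.090, adjusted p = 1.09e-05, edgeR). Transcript transcripts_22389 (1678 bases) showed the same order, with 6943, 6796 and 6458 TPM in stem, 2392, 2485 and 2588 TPM in leaf and 1297, 1298 and 1307 TPM in root (leaf over stem -1.99 ± 0.090, adjusted p = 4.11e-06; stem over root 2.54 ± 0.11, adjusted p = 2.28e-06, edgeR). Transcript transcripts_36889 (4511 bases) stood at 5829, 6224 and 5648 TPM in stem, 2237, 2209 and 2286 TPM in leaf and 2414, 2419 and 1909.7 TPM in root. Here leaf and root overlapped in TPM and stem stood above both (leaf over stem -1.93 ± 0.076, adjusted p = 2.43e-06; stem over root 1.62 ± 0.087, adjusted p = 6.65e-06, edgeR), the latter 0.98 with library totals alone.

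Combining the pairwise calls gave each member an organ profile. Called higher in stem than in both other organs were 27 members (22.5%, beside 8.11% of all transcripts tested), and called lower in root than in both others were 23 (19.2%, beside 12.1%), with 5 members in both groups. The converse profiles were rare. Root-highest were 2 members (1.67%, beside 19.3%), leaf-highest 2 (1.67%, beside 4.42%) and leaf-lowest 2 (1.67%, beside 6.3%), and 0 members were stem-lowest (beside 8.91%). Stem-lowest members numbered 2, transcripts_4120 and transcripts_21044, with library totals alone and with effective lengths in the model. In all, 51 members had such a profile under TMM scaling (42.5%, beside 50.4%) and 27 with library totals alone, summed over all profiles. The number of members highest in stem depended on the scaling. That profile requires a call over leaf, which 31 members had under TMM scaling and 32 under DESeq2. Only 8 had it when TMM was left out, and 8 under limma on log2(TPM + 1), so at most 8 could be highest in stem there. Whether members exceeded all transcripts in this profile was not tested in those 2 settings. Root-highest members numbered 4 without root replicate 3. These calls share samples.

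A smaller part of the members was level across organs. The ratio of the highest to the lowest TPM over the 8 samples had a median of 2.31 and ran from 1.24 to 18.0; it was at most 1.5 for 12 members, at most 2 for 41 and at most 4 for 100. The 4 most even members were transcripts_24036, transcripts_28500, transcripts_3014 and transcripts_32876. Transcript transcripts_28500 (1447 bases) stood at 898, 875 and 907 TPM in leaf, 994, 997 and 786 TPM in root and 918, 929 and 899 TPM in stem, and its rank stayed between 104 and 120. Its organs overlapped in TPM. Under TMM scaling it was nevertheless lower in leaf than in stem by the p-value alone (-0.57 ± 0.074, adjusted p = 6.94e-04, edgeR), a value equal to the median of the members and below the 2-fold threshold.

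The other even members were less abundant. Transcript transcripts_24036 (708 bases) stood at 330.3 to 374 TPM in leaf, 304, 304 and 316 TPM in root and 303 to 327 TPM in stem. Transcript transcripts_3014 (1430 bases) stood at 407 to 429 TPM in leaf, 519, 519.6 and 401 TPM in root and 418 to 479 TPM in stem. Transcript transcripts_32876 (4832 bases), the longest member, stood at 320.2 to 338 TPM in leaf, 342, 342 and 336 TPM in root and 420.3 to 435 TPM in stem, and so was higher in every stem library than in any other. By mean TPM, transcripts_33239 (317 bases) was the most abundant member within 1.5-fold over the 8 samples, with leaf at 3053 ± 226 (SD, n = 3), root at 3627 ± 638 (SD, n = 2) and stem at 3024 ± 215 (SD, n = 3). The count model gave a call for stem over root (1.14 ± 0.14, adjusted p = 4.46e-04, edgeR), with 0.20 (adjusted p = 0.310, edgeR) once effective lengths were entered and -0.25 under limma on log2(TPM + 1).

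Effective length differed between root and shoot libraries, and its effect on the root ratios changed gradually with transcript length. Over the 19 members up to 300 bases the median effective length ranged over 33.1 to 36.6 bases in root, 78.5 to 93.3 bases in leaf and 79.4 to 85.5 bases in stem. Their root over leaf ratio was 1.80 times larger in TPM than in CPM, the reads scaled to 1000000 per library, at the median (range 1.44 to 3.06), and their root over stem ratio 1.81 times (range 1.45 to 3.16). Over the other 101 members the factors were 0.829 (range 0.607 to 1.96) and 0.830 (range 0.629 to 2.10) at the median. Within these, 18 of the 22 members above 300 and up to 500 bases were above 1 against either shoot organ, like the shorter ones, and 7 of the 79 members above 500 bases were. In TPM 11 of the 19 short members were above stem in root, and in CPM 2 were.

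**Figure D3:**
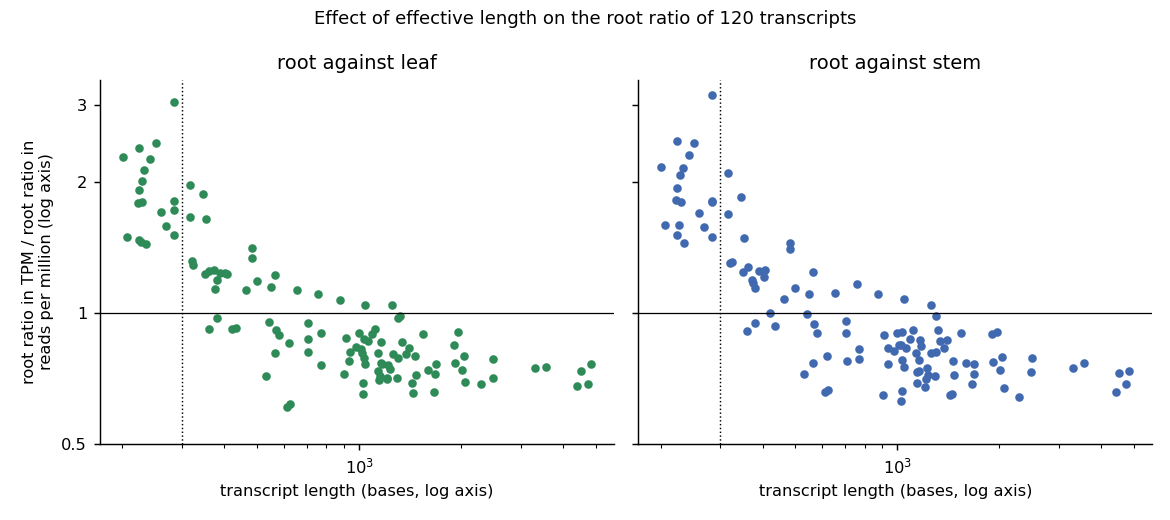
Root over leaf (left) and root over stem (right) ratio of mean TPM divided by the same ratio of mean CPM, for each of the 120 transcripts (vertical log axis) against transcript length in bases (horizontal log axis); the dotted line marks 300 bases. Members up to 300 bases lie above 1, with a median of 1.80 for leaf and 1.81 for stem, as do most up to 500 bases, and most longer members lie below 1.

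Calls of short members depended on this. On counts alone 10 short members were higher in leaf than in root and 0 lower, and 13 were higher in stem than in root and 0 lower. With effective lengths in the model these numbers were 2 and 2 for leaf and 7 and 1 for stem. Of the 101 longer members, 22 were called in leaf against root both without and with effective lengths, but 5 calls were lost and 5 gained. In stem against root 48 were called without and 46 with them, with 9 lost and 7 gained, and in leaf against stem 0 were lost or gained. Among the losses was transcripts_4892 (353 bases), with 1.05 for leaf over root without effective lengths and 0.22 (adjusted p = 0.440, edgeR) with them. Calls were not counted over all transcripts of either length class, so these numbers describe the members alone. Whether the effective lengths or the counts describe short transcripts better was not tested.

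The root libraries differed from each other in more than transcripts_2235. Over the members, root replicate 3 stood at a median of 0.828 times the mean of root replicates 1 and 2, beside 0.780 for 7123 transcripts at 20 TPM or more in those replicates. It was above them for 37 members (30.8%, beside 19.5% of the 7123) and more than 2-fold above for 6 (5%, beside 1.26%). For 437 transcripts at 300 TPM or more in root replicates 1 and 2 the median was 0.779, with 19.45% above and 2.29% more than 2-fold above. Members also had to reach 300 TPM in root replicate 3, which removes low ratios in advance. The higher shares therefore cannot be read as a trait of the members. Among the members, after transcripts_2235 (6.19 times) the largest ratios were those of transcripts_4813 (3.03) and transcripts_22582 (2.59). The smallest were those of transcripts_28645 (0.483; 739, 742 and 357 TPM), transcripts_4892 (0.534; 2866, 2875 and 1532 TPM) and transcripts_13681 (0.538; 2143, 2139.7 and 1152 TPM). With 1 library against a pair counted as 1 sample these ratios have no replicate check.

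**Figure D4:**
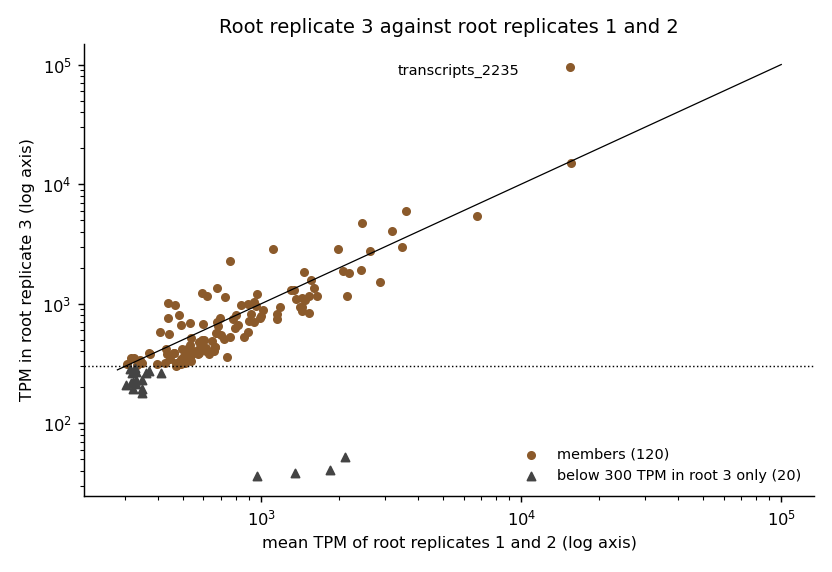
TPM in root replicate 3 (vertical log axis) against the mean TPM of root replicates 1 and 2 (horizontal log axis) for the 120 members (circles) and for 20 transcripts below 300 TPM in root replicate 3 alone (triangles); the solid line marks equality and the dotted line 300 TPM. Most members lie somewhat below the line, transcripts_2235 lies 6.19-fold above it, and 4 triangles lie at 36.6 to 51.9 TPM in replicate 3.

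Root replicate 3 also decided which transcripts were members. It was the lowest library for 57 of the 120 members, and 20 further transcripts would have been included without it, against 0 or 1 for any other library. Of these 20, 16 stood at 179 to 293 TPM in root replicate 3. The remaining 4 were far lower there: transcripts_26271 (386 bases), transcripts_30852 (776 bases), transcripts_8441 (512 bases) and transcripts_13675 (417 bases), singled out after their values were seen. Transcript transcripts_26271, the most abundant transcript in leaf and stem after transcripts_2235, stood at 25587 to 29258 TPM in leaf, 27293 to 29266 TPM in stem and 2100.4, 2088 and 51.9 TPM in root.

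The other 3 showed the same step between root libraries. Transcript transcripts_8441 stood at 1839, 1839 and 40.6 TPM in root replicates 1 to 3, transcripts_30852 at 1343 and 1349 against 38.4 TPM, and transcripts_13675 at 961 and 967 against 36.6 TPM. Root replicate 3 was 0.0221 to 0.0379 times the other root libraries for the 4 transcripts. Relative to the leaf mean, root replicates 1 and 2 stood at 6.71% to 15.4% and root replicate 3 at 0.190% to 0.340%. Together these 4 transcripts took up 6.20% to 6.84% of TPM in leaf libraries and 4.93% to 5.19% in stem libraries. In root the share was 0.624% for the first and second replicates and 0.0168% for the third.

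Most members hardly varied between libraries of leaf or of stem, and the exceptions varied together. The ratio of highest to lowest library had a median of 1.14 in leaf and 1.1 in stem. It reached 1.5 for 10 members in leaf (8.33%) and 9 in stem (7.50%), and the 9 of stem were all among the 10 of leaf. For the other transcripts at 300 TPM or more in all libraries of the organ, the ratio reached 1.5 in 13 of 272 in leaf (4.78%) and 5 of 317 in stem (1.58%). The 9 members were transcripts_22582, transcripts_9432, transcripts_8312, transcripts_2889, transcripts_4813, transcripts_20400, transcripts_23327, transcripts_12837 and transcripts_24793, a list formed after their values were seen and given without a test.

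Their direction was the same in each case, which the ratios did not fix. In leaf, replicate 1 was highest for all 9. In stem, all 9 ran in the order replicate 3, replicate 1, replicate 2 from high to low. In root, replicate 3 exceeded replicates 1 and 2 for all 9, by 1.44 to 3.03 times with a median of 1.95, while the median of the other 111 members was 0.808.

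The most abundant of them, transcripts_22582 (374 bases), stood at 5992, 3429 and 3070.2 TPM in leaf, 1114, 1111 and 2878 TPM in root and 2619, 2047 and 3554 TPM in stem. Each organ overlapped with another, and its range within leaf was wider than the difference between the leaf and stem means. Transcript transcripts_8312 (346 bases) stood at 2965, 1598 and 2298 TPM in leaf, 2442, 2425 and 4737 TPM in root and 1342, 1072 and 1669.8 TPM in stem. Transcript transcripts_2889 (1091 bases) stood at 2466, 1516 and 1645 TPM in leaf, 615, 622 and 1153 TPM in root and 1091, 787 and 1312 TPM in stem. The other 6 ranged from 402 to 4553 TPM. In leaf against root 0 of the 9 were called (beside 44.3% of all transcripts tested), in leaf against stem 0 (beside 29.0%) and in stem against root 1 (beside 52.0%). They were picked for a large spread between replicates, which widens the error of each test. The call was stem over root for transcripts_22582 (1.34 ± 0.49, adjusted p = 0.0479, edgeR), and it was lost without leaf replicate 2 or 3 or any stem library, with an adjusted p of 0.0514 to 0.112. It was also lost with library totals alone (0.67, adjusted p = 0.258, edgeR) and with effective lengths in the model (0.90, adjusted p = 0.164, edgeR). Without a filter on low counts, with DESeq2 size factors and with only the organs compared, its adjusted p was 0.0529 to 0.0676 (edgeR). The value was 2.21 without root replicate 3 and 0.89 when that library alone stood for root. In leaf over root this transcript was called by DESeq2 (1.23, adjusted p = 0.00978, DESeq2) and on 9 separate libraries (1.58, adjusted p = 0.0148, edgeR).

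**Figure D5:**
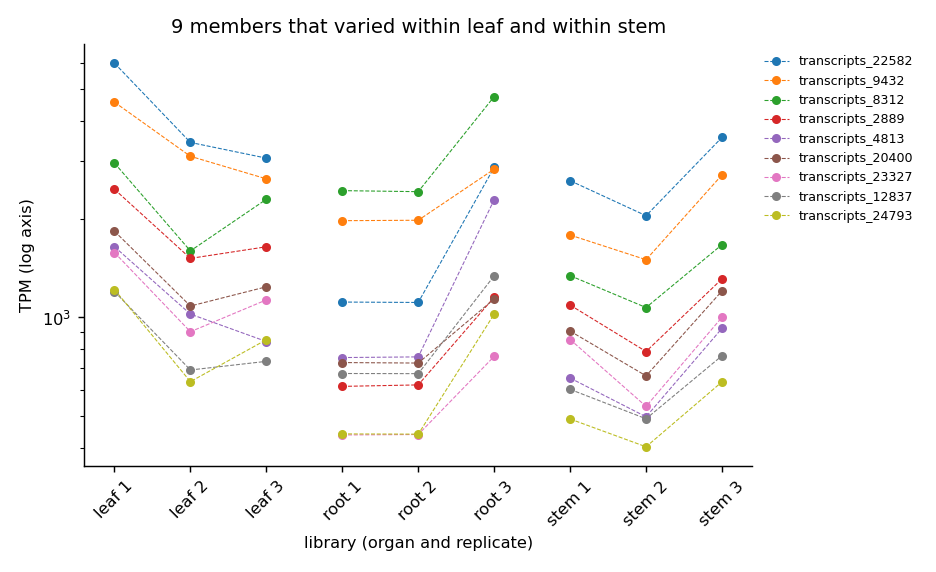
TPM (vertical log axis) of 9 members in the 9 libraries (horizontal axis), each point 1 library; dashed lines only join points of the same transcript within an organ. All 9 are highest in leaf replicate 1, in root replicate 3 and in stem replicate 3, and lowest in stem replicate 2 among the stem libraries.

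Most members had estimated counts that were not whole, as arises when some reads are divided among similar transcripts. In each library 83 to 111 of the 120 members (69.2% to 92.5%) had an estimated count more than 0.001 away from a whole number, beside 54.1% to 64.0% of all transcripts with reads. For 71 members this held in all 9 libraries and for 4 in none. A few divided reads are enough for this, so what part of a member's reads was divided is not shown. Members and all transcripts were not matched for read number. Levels of members with near-identical copies can be uncertain, and such copies were not identified here.

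At the threshold, the members just inside were transcripts_24036 (lowest library 303 TPM, stem replicate 2), transcripts_8346 (304 TPM, root replicate 3) and transcripts_5925 (305 TPM, stem replicate 2). Just outside were transcripts_17398 (293 TPM, root replicate 3), transcripts_7120 (284 TPM, root replicate 2) and transcripts_13688 (283 TPM, leaf replicate 3). The last of these shows that the rule leaves out transcripts that are abundant elsewhere, since it stood at 3506, 3474 and 4993 TPM in root. The lowest library of a member was a root library in 76 cases, a stem library in 26 and a leaf library in 18.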

How the data were processed

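TRIzol extraction, DNase treatment, poly(A) enrichment and a directional library kit were used, per the labels. fastp 0.23.2 and Salmon 1.10.0 are the tools listed per the submitters' processing notes; the reference transcripts and options are unstated in the sources used here. The deposited TPM values sum to 1000000 per library, and the deposited estimated counts (expected counts of reads) are not whole, because the authors' software divides reads among similar transcripts. Lengths and effective lengths in bases come from the deposited tables per the file headers.

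Members are transcripts at 300 TPM or more in all 9 libraries; the members, rules and lists were chosen with earlier results of these data known. Root replicates 1 and 2 were averaged. Rounded counts of 8 samples entered a robust quasi-likelihood model with 1 mean per organ and TMM scaling (edgeR 4.0.16, R 4.3.3, low counts removed with filterByExpr). The model was first run on simulated data whose spread was taken from the leaf and stem libraries. That run does not cover the wider spread between the root samples. Standard errors are the log2 fold change divided by the square root of the F statistic. Alternatives used DESeq2 1.42.0, limma 3.58.1, other scalings, filters and sample sets; effective-length offsets and shares without transcripts_2235 were added after the data were seen. Named transcripts followed a rule: the 10 highest by mean, the 3 largest calls in each direction of each comparison without overlap in TPM, the 4 most even, the 3 highest and lowest ratios between root libraries, the 3 on either side of the threshold, and the most abundant of each library; others are marked as singled out later. Gene lists could not be used without names.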

Additional observations from a re-analysis of the deposited data

How the results depend on the processing

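The 120 members became 194, 49 and 18 with a floor of 200, 500 and 1000 TPM, and leaving out single libraries gave 120 to 140, the most without root replicate 3. With floors of 200, 500 and 1000 TPM their share of TPM was 23.9%, 14.5% and 9.95% in leaf and 25.5%, 15.7% and 11.3% in stem, and in root it was 22.0%, 13.6% and 10.4%. As a share of reads it was 12.4%, 11.2% and 15.4% in leaf, root and stem, and without transcripts_2235 the share of TPM was 15.7%, 12.8% and 17.0%. Members chosen without root replicate 3 held 28.0% of leaf TPM, 19.1% of root TPM and 27.8% of stem TPM. When single libraries were left out the leaf share was 20.2% to 20.8%, the root share 14.5% to 18.3% and the stem share 21.6% to 21.9%. Stem against root called 37 members under limma on log2(TPM + 1) and with a pseudocount of 0.1, and 39 with library totals, while leaf against stem called 11 under each, and organ-highest or organ-lowest members numbered 26, 26 and 27. Without the 2-fold threshold leaf against root called 74, stem against root 92 and leaf against stem 85, and 99 had an organ profile. DESeq2 called 29, 54 and 35 members in these pairs, and edgeR with DESeq2 size factors 28, 53 and 36. Shares over all transcripts are given only for the reported model, so counts under other settings describe the members alone.

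On the 9 separate libraries a replicate block gave 36, 63 and 34 calls, against 36, 61 and 34 without it. For leaf and stem libraries with the same number, deviations correlated at -0.037, 0.011 and 0.011, so the numbers were not taken as pairing; in root, replicates 1 and 2 are nearly the same.

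Of 1701 recomputed fold changes of 27 named members, 91 changed sign. Of these, 83 were of values not called by the reported model, which include transcripts_1197 in leaf over root (0.86, and -0.59 with effective-length offsets). They also include changes with library totals alone where the adjusted p was under 0.05 both times (edgeR). These were transcripts_10334 in stem over root (0.31, then -0.33) and transcripts_24036 in stem over root (0.28, then -0.37) and leaf over stem (-0.27, then 0.28). The other 8 were of called values: transcripts_1197 in stem over root (-0.64 under limma with either pseudocount, -0.17 with effective-length offsets), transcripts_33239 in stem over root (-0.25 under limma with either pseudocount), and transcripts_7870 in leaf over root (-0.13 in all 3 settings). Depth limits the short members most, down to 81.2 reads.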
